A study of Mus musculus with 12 samples.

Results

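The genes described here are the glutathione transferases and the antioxidant genes around them: the Gst and Mgst families, the glutathione peroxidases, the peroxiredoxins, the thioredoxin reductases, the genes of glutathione synthesis, and *Nfe2l2* and *Keap1* with the oxidoreductases *Nqo1*, *Hmox1* and *Srxn1*. They were taken by gene symbol, which gave 48 genes and 87 probes among 19057 genes and 45281 probes. Where a gene had several probes, the brightest on average was used, and the others are given where they bear on a result. *Gsr*, *Prdx5* and *Prdx6* also fall under the rule and were not analysed here.

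To compare tumors that arose with and without Norrin, a secreted activator of the Fzd4 receptor on endothelial cells, RNA from each sample was hybridised to 1 Illumina mouse whole-genome expression array. There were 4 medulloblastomas (MBs) from NdpKO;Ptch+/- mice on a mixed background, 4 MBs from Ptch+/- mice on C57Bl/6, and 4 samples of granule neuron progenitors (GNPs) from wild-type (WT) C57Bl/6 mice at postnatal day 6. All the tumors arose in mice with germline loss of 1 *Ptch* allele, which derepresses Hedgehog signalling in granule cell precursors. The study treats inactivation of the other allele as a mark of progression to malignancy in these mice. The state of that allele in these tumors was not examined here. *Ndp*, which encodes Norrin, is X-linked, and a lacZ cassette disrupts it in the knockout allele. The cross yields NdpKO;Ptch+/- mice of the male sex only, while controls may be of either sex. The GNPs came from whole cerebella by percoll gradient and pre-plating, whereas the tumors were not purified, so fewer cells of a type and less RNA per cell cannot be told apart in these values. By the study's account each GNP array was 1 animal. For the tumors the sources used here do not say that each sample came from a separate mouse, so the spread among them may be in part technical. The study describes its mutants and controls as drawn from one breeding cohort with matched backgrounds, whereas the sample records give mixed for one tumor genotype and C57Bl/6 for the other; if the records hold, strain and the *Ndp* genotype cannot be told apart.

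Glutathione is a tripeptide thiol that cells use to reduce peroxides and to tag reactive molecules for export. Glutamate-cysteine ligase (*Gclc*, *Gclm*) and glutathione synthetase (*Gss*) make it, glutathione peroxidases spend it on peroxides, and glutathione transferases couple it to electrophiles. Peroxiredoxins and thioredoxin reductases run a parallel thiol system. NRF2, encoded by *Nfe2l2*, activates many of these genes through antioxidant response elements in their promoters and is held in check by KEAP1, which marks it for degradation.

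Values are normalized log2 signals. The background limit was set at 4.5, and a gene with no measurable signal reads about 4.1. Of the 48 genes, 24 reached the limit on all 12 arrays, 10 on some and 14 on none. Those on none included *Nqo1*, the catalytic ligase subunit *Gclc*, the alpha-class *Gsta1*, *Gsta2* and *Gsta3* and the mu-class *Gstm3*, and nothing can be said of their changes. The 4 peroxiredoxins measured, *Prdx1* to *Prdx4*, reached the limit on all arrays. The *Ndp* probe lay under the limit on every array (4.12 to 4.21) and could not check the genotype. Arrays of 1 group correlated at 0.984 to 0.996 over all probes. Among cell type markers, the summed linear signal of 15 microglia and macrophage genes was 7423 to 12122 in NdpKO;Ptch+/- MBs and 9986 to 17608 in Ptch+/- MBs, against 988 to 1519 in GNPs, with *Itgam* and *Ptprc* under the limit on every array. In other lists every GNP sample was above every tumor. The signal of 14 endothelial genes was 3823 to 5740 in NdpKO;Ptch+/- MBs and 3300 to 4747 in Ptch+/- MBs, against 5791 to 8069 in GNPs. That of 12 mature neuron genes was at most 14859 and 14759, against 19650 to 20529. Fibroblast and meningeal signal was at most 8860 and 12464, against 12521 to 15194. The part of these cell types in the members' values was not tested. The granule precursor marker *Atoh1* was under the limit on every array, while *Zic1*, another granule lineage gene, had 13.6 to 14.3 on all of them. Of 13 granule lineage genes measured, 2 (15.4%) were lower and 0 higher in NdpKO;Ptch+/- MBs than in GNPs (limma, adjusted p under 0.05). This stood beside 7.98% and 7.69% of all genes. In Ptch+/- MBs 3 (23.1%) were lower and 1 (7.69%) higher, beside 10.9% and 10.3% of all genes.

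Between the tumor genotypes, 3 members passed at an adjusted p under 0.05 in limma, and they fell into 2 kinds. *Gsto1* and *Gpx8* were higher in NdpKO;Ptch+/- MBs than in Ptch+/- MBs. Their means in NdpKO;Ptch+/- MBs lay within 0.24 of the GNP means on the log2 scale. *Gstp2* was lower in NdpKO;Ptch+/- MBs, where 3 of 4 arrays were under the background limit, as were all the GNP arrays. The higher members were 2 of 48 (4.17%) where 0.808% of all genes tested were higher, and the lower member was 1 of 48 (2.08%) where 1.26% of all genes were lower. The shares of all genes, here and below, include many genes under the limit. Of 19057 genes, 7366 reached it on all arrays, beside 24 of the 48 members, so the sets compared differ in signal. A further 13 of the 16 members with an unadjusted p under 0.05 did not pass after Benjamini-Hochberg adjustment over all probes, and the median log2 fold change was 0.07 over the members and 0.00 over all genes.

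The upstream sequences of these 3 genes and of the neighbouring *Gstp1* are shown because *Gstp1* and *Gstp2* have similar promoters, while their log2 differences between tumor genotypes were 0.25 and -2.54. Each is the 250 bases before the RefSeq transcription start (GRCm38.p6), read 5′ to 3′ on the gene's strand. Capitals mark the AP-1 site TGANTCA and the GC box GGGCGG, on either strand.
Gsto1 promoter, chr19:47854723-47854972 (+ strand): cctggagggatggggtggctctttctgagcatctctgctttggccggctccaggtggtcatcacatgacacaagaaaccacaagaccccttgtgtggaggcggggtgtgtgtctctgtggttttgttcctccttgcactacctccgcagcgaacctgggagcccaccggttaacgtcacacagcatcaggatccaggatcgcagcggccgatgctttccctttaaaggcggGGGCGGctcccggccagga
Gpx8 promoter, chr13:113046389-113046638 (- strand): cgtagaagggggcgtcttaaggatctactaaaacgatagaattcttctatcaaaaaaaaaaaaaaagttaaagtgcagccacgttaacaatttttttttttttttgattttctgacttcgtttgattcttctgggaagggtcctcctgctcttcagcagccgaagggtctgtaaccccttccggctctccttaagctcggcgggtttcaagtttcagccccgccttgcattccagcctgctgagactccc
Gstp2 promoter, chr19:4042222-4042471 (- strand): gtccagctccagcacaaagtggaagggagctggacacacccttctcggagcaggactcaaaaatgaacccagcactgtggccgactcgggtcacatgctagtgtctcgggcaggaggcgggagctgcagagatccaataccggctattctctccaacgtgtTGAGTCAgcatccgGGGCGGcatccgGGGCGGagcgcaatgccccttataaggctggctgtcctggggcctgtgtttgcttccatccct
Gstp1 promoter, chr19:4037913-4038162 (- strand): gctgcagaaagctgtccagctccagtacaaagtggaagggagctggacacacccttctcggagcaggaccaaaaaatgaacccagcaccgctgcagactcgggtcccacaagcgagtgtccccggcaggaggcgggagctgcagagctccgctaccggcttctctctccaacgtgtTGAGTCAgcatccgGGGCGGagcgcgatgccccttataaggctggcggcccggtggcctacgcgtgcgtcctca

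The *Gstp2* and *Gstp1* windows were identical at 207 of 235 aligned bases (88.1%). Both held 1 AP-1 site followed by GC, and *Gstp2* held 2 GC boxes where *Gstp1* held 1. *Gsto1* held 1 GC box and *Gpx8* neither motif. AP-1 sites were in 6.75% and GC boxes in 32.7% of all 32851 promoter windows of the same length. A match of letters is a description and not a bound site.

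*Gsto1* encodes the omega-class transferase, which reduces mixed disulfides of glutathione and dehydroascorbate rather than conjugating electrophiles. Its log2 signal was 10.79, 10.69, 10.93 and 10.27 in NdpKO;Ptch+/- MBs and 7.52, 7.06, 7.52 and 7.93 in Ptch+/- MBs, against 10.46, 10.67, 10.60 and 10.25 in GNPs. All the Ptch+/- MBs lay below every other array, by more than 2.3, and the NdpKO;Ptch+/- MBs overlapped the GNPs. The log2 fold change was 3.17 ± 0.19 (SE) between tumor genotypes, or 8.97-fold (limma adjusted p = 0.00020). Against GNPs it was 0.18 ± 0.19 in NdpKO;Ptch+/- MBs (adjusted p = 0.64) and -2.99 ± 0.19 in Ptch+/- MBs (adjusted p = 9.09e-06). The first of these has a 95% interval of -0.26 to 0.61. The call between tumor genotypes held in all 25 alternative settings, with log2 fold changes of 3.02 to 3.38.

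*Gpx8* encodes a peroxidase of the endoplasmic reticulum membrane. Its log2 signal was 10.21, 10.35, 10.27 and 9.55 in NdpKO;Ptch+/- MBs and 8.41, 8.71, 9.39 and 8.96 in Ptch+/- MBs, against 10.37, 10.56, 10.15 and 10.23 in GNPs. The tumor genotypes did not overlap, although the lowest NdpKO;Ptch+/- MB and the highest Ptch+/- MB were 0.16 apart. The log2 fold change between them was 1.23 ± 0.23 (2.34-fold, limma adjusted p = 0.038). It was -0.24 ± 0.23 in NdpKO;Ptch+/- MBs against GNPs (adjusted p = 0.59) and -1.46 ± 0.23 in Ptch+/- MBs against GNPs (adjusted p = 0.0020). The other probes of the gene gave 1.30 (adjusted p = 0.039) and 1.42 (adjusted p = 0.051) between tumor genotypes. Over the 12 fits that each left out 1 array the log2 fold change ran between 1.07 and 1.41, and the call was kept only without NdpKO;Ptch+/- MB 4 or without Ptch+/- MB 3. It was also lost in a fit of the tumors alone (adjusted p = 0.18), and the adjusted p ran between 0.0063 and 0.18 over all alternatives.

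*Gstp2* encodes a pi-class transferase that is a close copy of *Gstp1*. Its log2 signal was 4.16, 4.94, 4.15 and 4.41 in NdpKO;Ptch+/- MBs and 7.99, 6.25, 6.44 and 7.16 in Ptch+/- MBs, against 4.14, 4.14, 4.16 and 4.13 in GNPs. Only the Ptch+/- MBs were above the limit as a group, and they lay above every other array. Because 3 NdpKO;Ptch+/- MBs lay under the limit, the log2 fold change of -2.54 ± 0.35 (limma adjusted p = 0.010) is a fitted value. Against GNPs, the signal was at least 5.50-fold higher in Ptch+/- MBs (adjusted p = 4.7e-04) and did not pass in NdpKO;Ptch+/- MBs (adjusted p = 0.69). In a fit of the tumors alone the call between tumor genotypes was lost (adjusted p = 0.11).

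**Figure D1:**
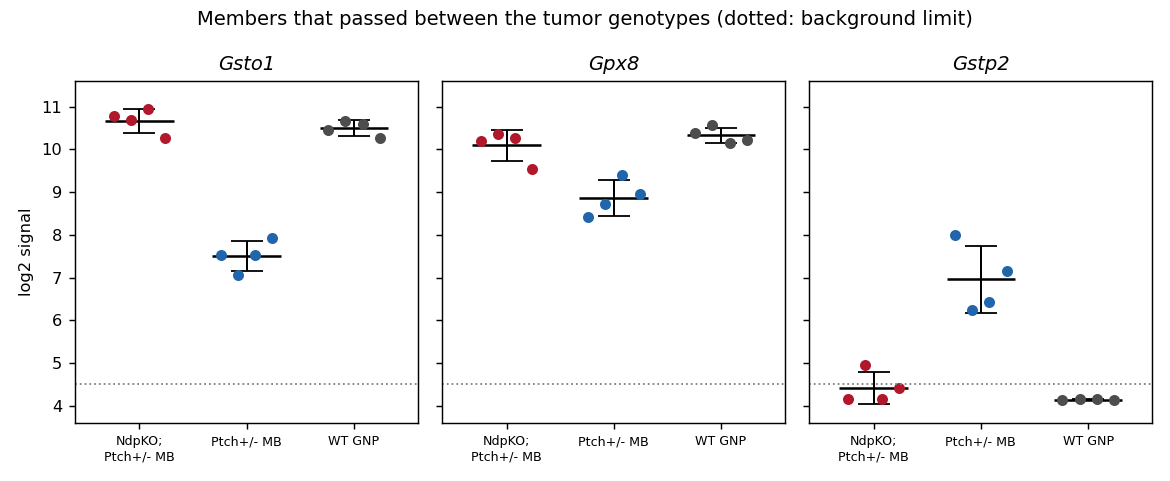
Log2 signal (y axis) of *Gsto1*, *Gpx8* and *Gstp2* on each array, with group mean and SD (black, n = 4 each) and the background limit of 4.5 (dotted). *Gsto1* and *Gpx8* are low in the Ptch+/- MBs alone, and *Gstp2* is above the limit in all 4 Ptch+/- MBs and 1 NdpKO;Ptch+/- MB.

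*Gstp1*, the major pi-class gene, had 11.86 to 12.20 in NdpKO;Ptch+/- MBs and 11.88, 11.46, 11.68 and 12.09 in Ptch+/- MBs, against 11.45, 11.54, 11.32 and 11.36 in GNPs. The *Gstp2* probe was at the floor in the same GNPs in which *Gstp1* was well above the limit. The tumor genotypes overlapped for *Gstp1* (log2 fold change 0.25 ± 0.13, limma adjusted p = 0.45). *Gstp3*, the third gene of the cluster, was at the floor on every array.

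The neighbours of these genes in the RefSeq gene order were examined in the same comparison, in which 0.808% of all genes were higher and 1.26% lower. Among the genes within 10 places on either side, 1 of 18 measured passed beside *Gsto1* and 2 of 17 beside *Gpx8* (limma, adjusted p under 0.05), and the 16 beside *Gstp2* had log2 fold changes of -1.10 to 0.38 that did not pass. Beside *Gsto1* the passing gene was *Stn1*, a telomere maintenance factor, at a fitted log2 fold change of 1.48 ± 0.28, with 3 of 4 Ptch+/- MBs under the limit. *Gsto2*, the adjacent omega-class gene, was at the floor on every array. Beside *Gpx8*, the endothelial gene *Esm1* was higher in NdpKO;Ptch+/- MBs (log2 fold change 4.18 ± 0.59, with 3 of 4 Ptch+/- MBs under the limit) and the cytokine receptor subunit *Il6st* was lower (-1.32 ± 0.13). These 3 neighbours are named to complete the counts, once their values had been seen.

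*Gstk1* and *Gstm2* had larger differences between tumor genotypes than *Gpx8* and did not pass. In both, the Ptch+/- MBs differed among themselves. *Gstk1*, the kappa-class transferase of mitochondria and peroxisomes, had 7.99, 7.61, 8.44 and 8.34 in NdpKO;Ptch+/- MBs and 4.66, 4.74, 7.47 and 6.93 in Ptch+/- MBs, against 8.80 to 9.20 in GNPs. Ptch+/- MBs 1 and 2 were close to background, while Ptch+/- MBs 3 and 4 came within 0.68 of the nearest NdpKO;Ptch+/- MB or closer. The log2 fold change between tumor genotypes was 2.14 ± 0.60 (limma adjusted p = 0.14), and a second probe gave 1.93. With probes under the limit on all arrays left out before the adjustment it passed (adjusted p = 0.043).

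*Gstm2*, a mu-class transferase, had 5.06, 4.63, 4.64 and 5.31 in NdpKO;Ptch+/- MBs and 7.13, 5.96, 4.62 and 7.47 in Ptch+/- MBs, against 7.22, 6.93, 6.93 and 7.09 in GNPs. Ptch+/- MBs 1 and 4 reached the GNP level and Ptch+/- MB 3 lay with the NdpKO;Ptch+/- MBs on this probe. On a second probe that sample had 5.42 and lay above the highest of them by 0.35, so that the tumor genotypes did not overlap, and the log2 difference was -1.36 ± 0.33 (limma adjusted p = 0.094). On the first probe the difference between tumor genotypes was -1.38 ± 0.53 (limma adjusted p = 0.29), and without Ptch+/- MB 3 it was -1.94 and passed (adjusted p = 0.041). Ptch+/- MBs 1 and 4 were also the samples with the highest summed signal of 8 choroid plexus markers, 32360 and 23447, where NdpKO;Ptch+/- MBs had 1913 to 5925, the other Ptch+/- MBs 9320 and 1506, and GNPs 3371 to 6781. In Ptch+/- MB 4 most of that signal was *Ttr* (14.2), and *Kl*, *Sostdc1* and *Folr1* were at or near background. Without Ptch+/- MBs 1 and 4 the log2 difference in *Gstm2* was -0.38 (adjusted p = 0.77), that of *Gsto1* was 3.38 (still passing), that of *Gpx8* was 1.04 (adjusted p = 0.13) and that of *Gstp2* was -1.93 (adjusted p = 0.0069). Ptch+/- MBs 1 and 4 were also the highest of their group in *Gstm2*, so leaving them out had to shrink its difference. The part of choroid plexus RNA in the *Gstm2* signal was not tested.

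**Figure D2:**
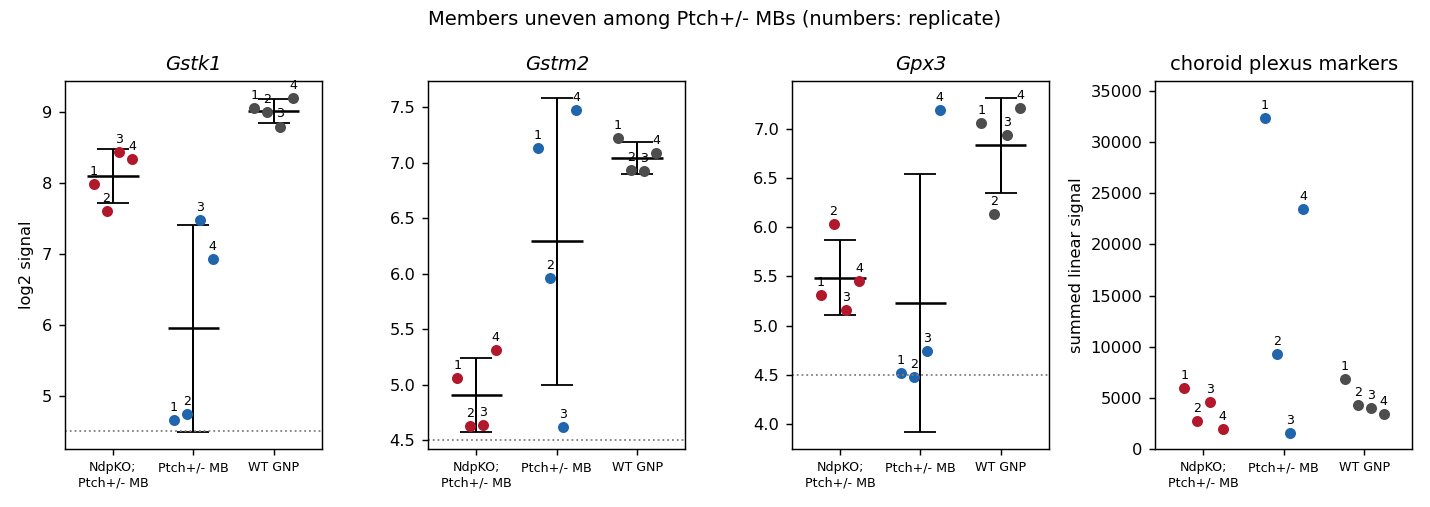
Log2 signal (y axis) of *Gstk1*, *Gstm2* and *Gpx3* on each array, numbered by replicate, with group mean and SD (n = 4 each), beside the summed linear signal of choroid plexus markers. Ptch+/- MBs 1 and 2 are low in *Gstk1*, and Ptch+/- MBs 1 and 4 are high in *Gstm2* and in choroid plexus signal.

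**Figure D3:**
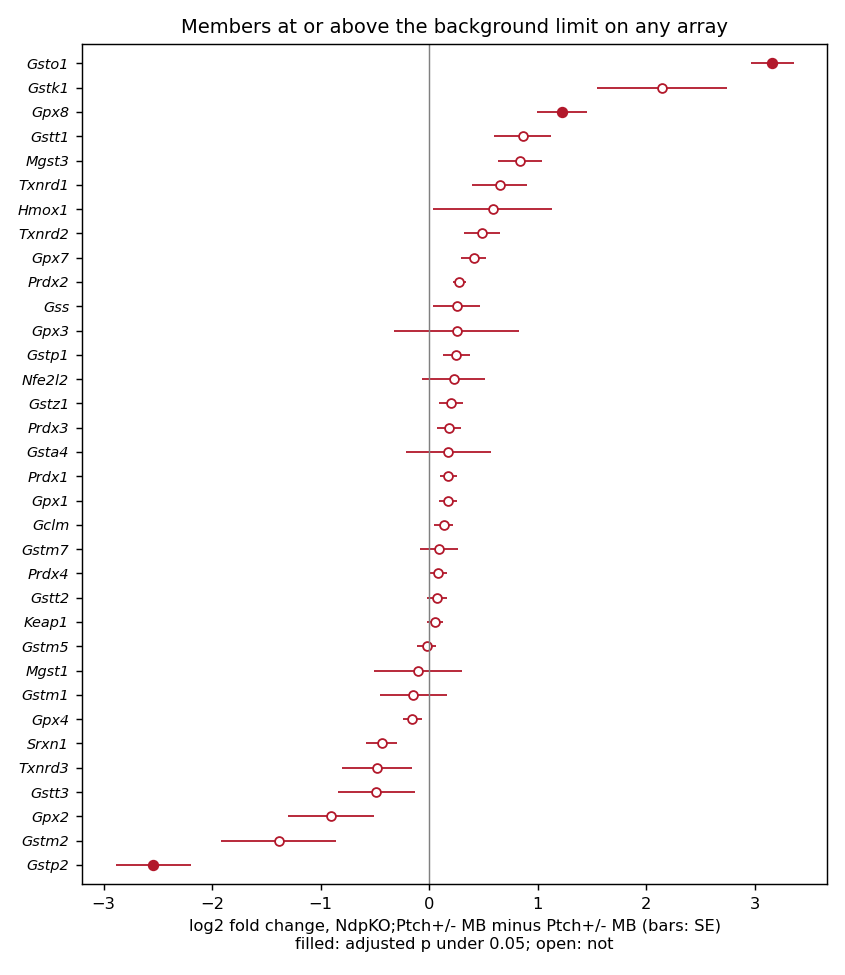
Log2 fold change (x axis, NdpKO;Ptch+/- MB minus Ptch+/- MB, bars SE) of the 34 members, of 48, that reached the background limit on at least 1 array. Filled points passed at an adjusted p under 0.05: *Gsto1* at 3.17, *Gpx8* at 1.23 and *Gstp2* at -2.54.

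The regulators and the measured synthesis genes did not pass between tumor genotypes in limma. *Nfe2l2* differed by 0.23 (95% interval -0.42 to 0.87) and *Keap1* by 0.06 (-0.11 to 0.22). *Gclm*, the modifier subunit of the ligase, differed by 0.13 (-0.06 to 0.33) and *Gss* by 0.25 (-0.22 to 0.73). The intervals of *Nfe2l2* and *Gss* were the widest of these.

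*Srxn1*, the sulfiredoxin that restores overoxidized peroxiredoxins, had 7.82, 7.76, 7.40 and 8.13 in NdpKO;Ptch+/- MBs and 8.10, 8.37, 8.16 and 8.22 in Ptch+/- MBs, against 7.82, 7.57, 7.79 and 7.95 in GNPs. Its difference between tumor genotypes, -0.44 ± 0.14, did not pass (limma adjusted p = 0.21). *Txnrd1*, the cytosolic thioredoxin reductase, had 6.37, 5.77, 5.95 and 5.98 in NdpKO;Ptch+/- MBs and 5.01, 5.42, 5.13 and 5.92 in Ptch+/- MBs, against 5.68, 5.63, 5.68 and 6.53 in GNPs (0.65 ± 0.26 between tumor genotypes, adjusted p = 0.30). *Hmox1*, which degrades heme, was under the limit in 7 of the 12 arrays and highest in NdpKO;Ptch+/- MB 3 (6.58), GNP 1 (5.93) and GNP 2 (5.67). None of the 3 separated the tumor genotypes.

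To set each tumor genotype beside GNPs, the cell type in which these tumors arise, both were compared with the same 4 WT GNP samples. The GNPs were WT and purified and the tumors were neither, so the differences are not those of transformation alone. The comparisons share those samples, so their values are given side by side and not correlated. In NdpKO;Ptch+/- MBs, 6 members were higher and 6 lower than in GNPs (12.5% each), where 7.69% of all genes were higher and 7.98% lower. In Ptch+/- MBs, 3 members were higher (6.25%) and 10 lower (20.8%), where 10.3% of all genes were higher and 10.9% lower. Over the members the median log2 fold change was 0.00 in NdpKO;Ptch+/- MBs and -0.01 in Ptch+/- MBs, and over all genes it was 0.00 in both. No member had probes that passed in opposite directions.

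**Figure D4:**
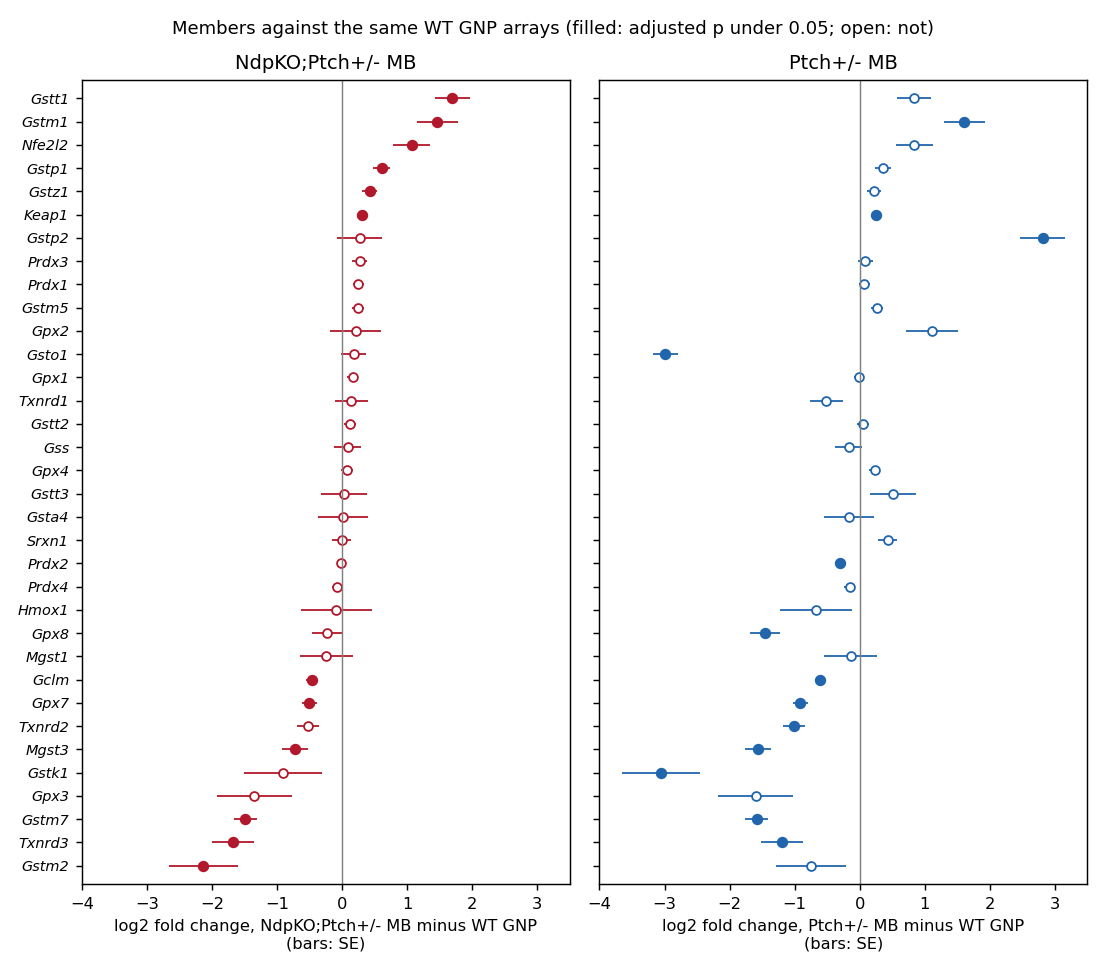
Log2 fold change against WT GNPs (x axis, bars SE) in NdpKO;Ptch+/- MBs (left) and Ptch+/- MBs (right) for the 34 members that reached the background limit on at least 1 array, in the same row order, with filled points at an adjusted p under 0.05. *Gsto1*, *Gpx8* and *Gstk1* (negative) and *Gstp2* (positive) are filled in the right panel and open in the left, and values of genes under the limit, such as *Gstm7*, are fitted.

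In the regulatory pair, *Nfe2l2* had 7.46, 6.93, 7.72 and 7.22 in NdpKO;Ptch+/- MBs and 7.14, 7.32, 6.31 and 7.66 in Ptch+/- MBs, against 6.53, 6.38, 5.84 and 6.31 in GNPs. All the NdpKO;Ptch+/- MBs and 3 of the 4 Ptch+/- MBs were above the GNPs, and Ptch+/- MB 3 lay among them. It passed in NdpKO;Ptch+/- MBs (log2 fold change 1.07 ± 0.29, 2.10-fold, limma adjusted p = 0.039) and not in Ptch+/- MBs (0.84 ± 0.29, adjusted p = 0.077). The first call was kept in 3 of 12 fits without 1 array (without NdpKO;Ptch+/- MB 2, Ptch+/- MB 3 or Ptch+/- MB 4), where its value ran between 0.93 and 1.20, and its highest adjusted p was 0.10, without NdpKO;Ptch+/- MB 3. The second passed without Ptch+/- MB 3 (1.11, adjusted p = 0.012). Microglia and macrophage signal was also higher in every tumor than in every GNP sample, and its part in these differences was not tested.

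*Keap1* had 10.10, 9.94, 9.88 and 10.17 in NdpKO;Ptch+/- MBs and 10.08, 10.06, 9.82 and 9.90 in Ptch+/- MBs, against 9.69, 9.74, 9.72 and 9.70 in GNPs. Every tumor lay above every GNP sample by a small margin. The log2 fold changes were 0.31 ± 0.07 in NdpKO;Ptch+/- MBs (limma adjusted p = 0.022) and 0.25 ± 0.07 in Ptch+/- MBs (adjusted p = 0.044), and 3 further probes of the gene above the limit gave 0.34, 0.70 and 0.48 in NdpKO;Ptch+/- MBs and 0.30, 0.67 and 0.56 in Ptch+/- MBs. Leaving out 1 array gave 0.26 to 0.36 and 0.21 to 0.30, with the call lost without NdpKO;Ptch+/- MB 1 or 4 or GNP 1, 3 or 4 in the first case and kept only without NdpKO;Ptch+/- MB 2, 3 or 4 or Ptch+/- MB 3 in the second. *Nqo1*, a classical NRF2 target, was under the limit on every array (4.14 to 4.31).

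In glutathione synthesis, *Gclm* was lower in both tumor genotypes. It had 9.13, 9.08, 9.11 and 8.94 in NdpKO;Ptch+/- MBs and 8.77, 8.96, 8.85 and 9.14 in Ptch+/- MBs, against 9.60, 9.37, 9.65 and 9.52 in GNPs. No tumor reached the lowest GNP sample. Relative to GNPs it differed by -0.47 ± 0.09 (log2) in NdpKO;Ptch+/- MBs (limma adjusted p = 0.0063) and -0.60 ± 0.09 in Ptch+/- MBs (adjusted p = 0.0012), and both calls held in all 12 fits without 1 array. *Gss* lay close to the limit, with 4.70, 5.28, 4.77 and 5.52 in NdpKO;Ptch+/- MBs and 4.42, 5.18, 4.96 and 4.69 in Ptch+/- MBs, against 4.91, 4.83, 5.01 and 5.18 in GNPs, and the groups overlapped.

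Among the glutathione transferases, 4 of 25 were higher (16%) and 3 lower (12%) in NdpKO;Ptch+/- MBs than in GNPs, beside 7.69% and 7.98% of all genes. In Ptch+/- MBs, 2 were higher (8%) and 4 lower (16%), beside 10.3% and 10.9% of all genes. *Gstm1*, a mu-class enzyme, was higher in both. It had 10.02, 9.47, 9.95 and 10.13 in NdpKO;Ptch+/- MBs and 9.44, 9.74, 9.90 and 11.07 in Ptch+/- MBs, against 8.23, 8.43, 8.52 and 8.53 in GNPs, so that every tumor was above every GNP sample by 0.91 or more. The log2 fold change was 1.46 ± 0.31 in NdpKO;Ptch+/- MBs (2.76-fold, limma adjusted p = 0.013) and 1.61 ± 0.31 in Ptch+/- MBs (3.05-fold, adjusted p = 0.0062). Ptch+/- MB 4, the highest, also had the highest summed astrocyte and Bergmann glia signal (39272, where NdpKO;Ptch+/- MBs had 18778 to 27934, the other Ptch+/- MBs 18706 to 29313 and GNPs 18218 to 20853), and its part was not tested. Without Ptch+/- MB 4 the log2 fold change of *Gstm1* in Ptch+/- MBs was 1.27 (adjusted p = 0.0014). A second *Gstm1* probe was at background.

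The closely related mu-class genes gave other values. *Gstm2* was lower in NdpKO;Ptch+/- MBs, with a log2 fold change of -2.13 ± 0.53 (4.39-fold, limma adjusted p = 0.028), and all the NdpKO;Ptch+/- MBs lay more than 1.6 below the GNPs. Its call was lost without NdpKO;Ptch+/- MB 1, 2 or 3 or any 1 GNP sample, with values of -2.27 to -2.04 over the fits without 1 array, and a second probe gave -2.09 and passed. In Ptch+/- MBs it did not pass (-0.75 ± 0.53, adjusted p = 0.41). *Gstm7* was under the limit in all 8 tumors and had 6.10, 5.75, 5.27 and 6.24 in GNPs, at least 2.53-fold lower in each tumor genotype (adjusted p = 5.2e-04 in NdpKO;Ptch+/- MBs and 2.5e-04 in Ptch+/- MBs). *Gstm5* had 11.52 to 12.13 on all arrays and did not pass. Mu-class genes share sequence, and how far each probe reads its neighbours was not tested.

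*Gstt1*, a theta-class transferase, had 6.74, 7.43, 7.23 and 6.37 in NdpKO;Ptch+/- MBs and 6.35, 6.43, 5.53 and 6.01 in Ptch+/- MBs, against 5.20, 5.01, 5.57 and 5.20 in GNPs. The NdpKO;Ptch+/- MBs were above all the GNPs, and Ptch+/- MB 3 was within the GNP range. It was higher by 1.70 ± 0.27 (log2) in NdpKO;Ptch+/- MBs (3.24-fold, limma adjusted p = 0.0026), a call kept in all 25 alternative settings, and 0.83 ± 0.27 in Ptch+/- MBs (adjusted p = 0.059). The second passed without NdpKO;Ptch+/- MB 2 or 4, which leave its value as it was, and without Ptch+/- MB 3 (1.02, adjusted p = 0.030). The difference between tumor genotypes, 0.86 ± 0.27, did not pass (adjusted p = 0.18).

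*Gstp1* was higher in NdpKO;Ptch+/- MBs by 0.61 ± 0.13 (limma adjusted p = 0.012), and its value of 0.36 ± 0.13 in Ptch+/- MBs did not pass (adjusted p = 0.087). *Gstz1*, the maleylacetoacetate isomerase of tyrosine breakdown, had 10.51, 10.60, 10.43 and 10.46 in NdpKO;Ptch+/- MBs and 10.12, 10.53, 10.36 and 10.18 in Ptch+/- MBs, against 9.85 to 10.33 in GNPs. The NdpKO;Ptch+/- MBs lay above the GNPs by 0.10 or more and the Ptch+/- MBs overlapped them. It passed in NdpKO;Ptch+/- MBs (0.42 ± 0.11, adjusted p = 0.037), a call kept only without Ptch+/- MB 1, 2 or 4 or GNP 2 among 12 such fits, and not in Ptch+/- MBs (0.22 ± 0.11, adjusted p = 0.23).

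*Mgst3*, a microsomal transferase, was lower in both tumor genotypes. It had 9.75, 10.67, 9.91 and 10.48 in NdpKO;Ptch+/- MBs and 9.29, 9.70, 9.40 and 9.08 in Ptch+/- MBs, against 10.85, 10.90, 10.99 and 10.99 in GNPs. On this probe the NdpKO;Ptch+/- MBs lay between the Ptch+/- MBs and the GNPs, with no overlap. It was lower by 0.73 on the log2 scale in NdpKO;Ptch+/- MBs (SE 0.20, limma adjusted p = 0.045, kept only without NdpKO;Ptch+/- MB 2 or 4 or Ptch+/- MB 2 or 4) and 2.96-fold lower in Ptch+/- MBs (log2 -1.56 ± 0.20, adjusted p = 6.8e-04, kept in all 12 such fits). A second probe gave -1.04 and -1.92. Between tumor genotypes the difference of 0.84 ± 0.20 did not pass (adjusted p = 0.096), although it did with probes under the limit on all arrays left out (adjusted p = 0.031).

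*Gstk1* was lower in Ptch+/- MBs than in GNPs by a log2 fold change of -3.06 ± 0.60 (8.34-fold, limma adjusted p = 0.0067), and in NdpKO;Ptch+/- MBs it did not pass (-0.92 ± 0.60, adjusted p = 0.40). All the tumors lay below the lowest GNP sample. *Gstt3*, another theta-class gene, was above the limit in Ptch+/- MB 4 alone (5.99). *Gstt3*, *Gstm5* and *Gstm7* are named to complete the family, with their values already seen.

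**Figure D5:**
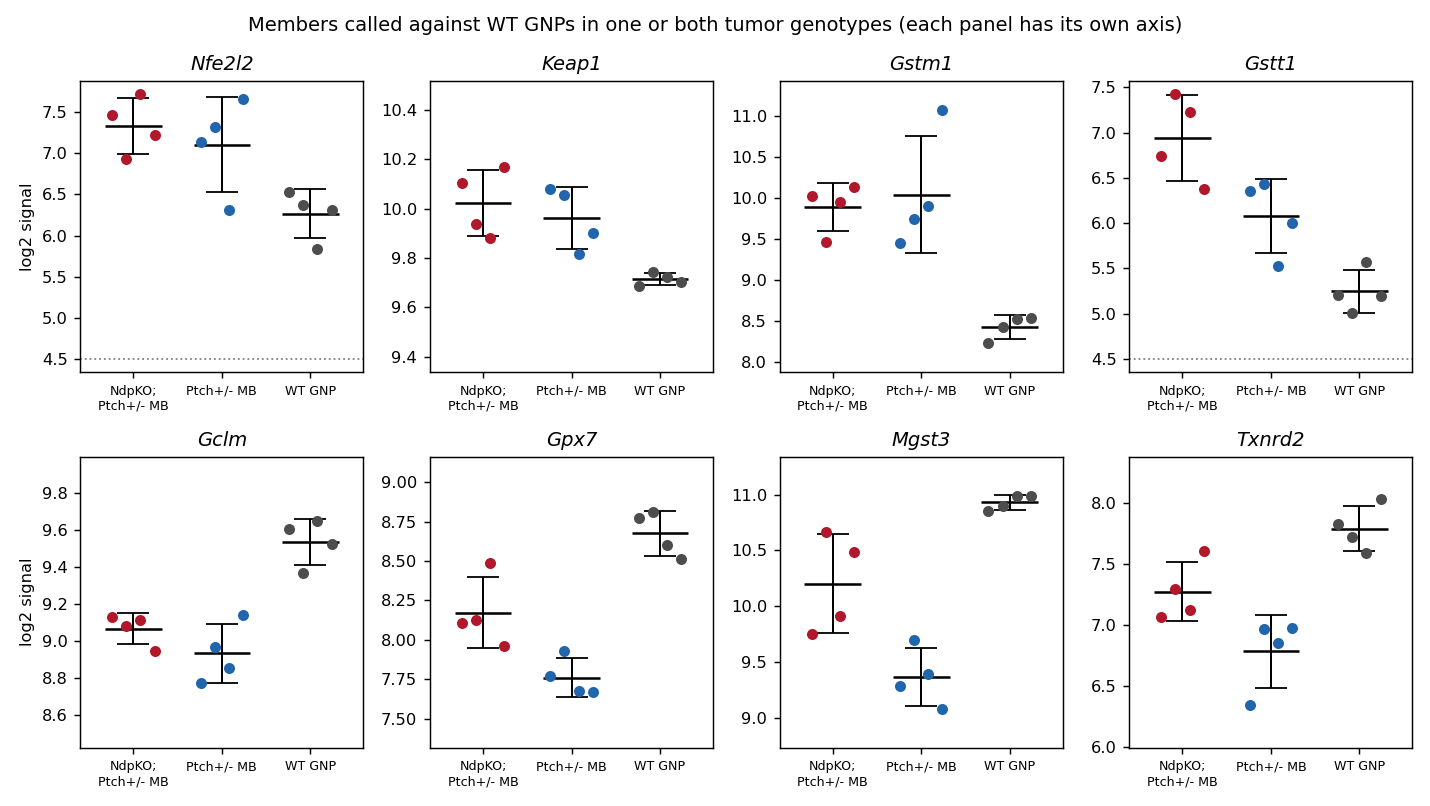
Log2 signal (y axis, its own range in each panel) of 8 members called against WT GNPs in one or both tumor genotypes, by array, with group mean and SD (n = 4 each). The upper genes are higher in tumors, with *Gstm1* and *Keap1* above the GNPs on every tumor array, and *Gclm*, *Gpx7*, *Mgst3* and *Txnrd2* are lower, with overlap only for *Txnrd2* in NdpKO;Ptch+/- MBs.

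Among the 8 glutathione peroxidases, *Gpx7* was lower in NdpKO;Ptch+/- MBs than in GNPs (12.5%), beside 7.98% of all genes. *Gpx7* and *Gpx8* were lower in Ptch+/- MBs (25%), beside 10.9% of all genes. *Gpx7*, which like *Gpx8* acts in the endoplasmic reticulum, had 8.11, 8.13, 8.49 and 7.96 in NdpKO;Ptch+/- MBs and 7.77, 7.93, 7.68 and 7.67 in Ptch+/- MBs, against 8.77, 8.81, 8.60 and 8.51 in GNPs. The groups did not overlap, and NdpKO;Ptch+/- MB 3 came within 0.02 of the lowest GNP sample. Its log2 fold change was -0.50 ± 0.12 in NdpKO;Ptch+/- MBs (limma adjusted p = 0.019, lost without NdpKO;Ptch+/- MB 1, GNP 1 or GNP 2) and -0.91 ± 0.12 in Ptch+/- MBs (adjusted p = 5.6e-04). *Gpx1* and *Gpx4*, the cytosolic and the phospholipid hydroperoxide enzymes, had 12.77 to 13.28 and 13.07 to 13.56 over all arrays and did not pass in any comparison.

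*Gpx3*, the secreted plasma peroxidase, had 5.31, 6.03, 5.15 and 5.45 in NdpKO;Ptch+/- MBs and 4.52, 4.48, 4.74 and 7.19 in Ptch+/- MBs, against 7.06, 6.13, 6.94 and 7.21 in GNPs. The NdpKO;Ptch+/- MBs lay under every GNP sample, and 3 Ptch+/- MBs were within 0.24 of the background limit while the fourth was at the GNP level. It did not pass in NdpKO;Ptch+/- MBs (-1.35 ± 0.57, limma adjusted p = 0.18) or in Ptch+/- MBs (-1.60 ± 0.57, adjusted p = 0.089). It was chosen for its uneven values.

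Of the 8 peroxiredoxins, thioredoxin reductases and *Srxn1*, 1 (12.5%) was lower in NdpKO;Ptch+/- MBs than in GNPs, beside 7.98% of all genes. In Ptch+/- MBs 3 (37.5%) were lower, beside 10.9% of all genes. Of these 8, 7 reached the limit on all arrays, as did 7366 of 19057 genes, so the shares are of unlike sets. *Txnrd2*, the mitochondrial reductase, had 7.07, 7.30, 7.12 and 7.61 in NdpKO;Ptch+/- MBs and 6.34, 6.96, 6.85 and 6.97 in Ptch+/- MBs, against 7.82, 7.72, 7.59 and 8.03 in GNPs. It was lower in Ptch+/- MBs (-1.01 ± 0.17, 2.01-fold, limma adjusted p = 0.0030) and did not pass in NdpKO;Ptch+/- MBs (-0.52 ± 0.17, adjusted p = 0.082), where it did under 7 of 25 alternatives. *Txnrd3*, which also reduces glutathione disulfide, had 4.29 to 4.33 in NdpKO;Ptch+/- MBs, all under the limit, and 4.35, 5.70, 4.24 and 4.85 in Ptch+/- MBs, against 6.27, 6.40, 5.32 and 5.93 in GNPs. It was at least 2.79-fold lower in NdpKO;Ptch+/- MBs (adjusted p = 0.0084), and its fitted log2 fold change in Ptch+/- MBs was -1.20 (adjusted p = 0.032).

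*Prdx2*, an abundant cytosolic peroxiredoxin that is also a major protein of red cells, had 14.68, 14.74, 14.60 and 14.46 in NdpKO;Ptch+/- MBs and 14.45, 14.32, 14.30 and 14.29 in Ptch+/- MBs, against 14.65, 14.58, 14.67 and 14.65 in GNPs. It was lower in Ptch+/- MBs than in GNPs (-0.30 ± 0.06, limma adjusted p = 0.0062), and like *Txnrd3* it is named to complete the count. Its dimmer probes gave -0.76 (adjusted p = 0.084) and -0.51 (adjusted p = 0.50) there and did not pass. On the brightest probe the difference between tumor genotypes, 0.28 ± 0.06, did not pass (adjusted p = 0.054). The summed signal of 8 erythroid genes was 3650 to 22356 in NdpKO;Ptch+/- MBs and 302 to 5047 in Ptch+/- MBs, against 7629 to 28412 in GNPs. Of these genes, 5 were under the limit on every array. The part of this signal in the *Prdx2* values was not tested. *Prdx1*, *Prdx3* and *Prdx4* did not pass in any comparison.

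The spread within groups was much the same for these genes as for others. Over the 24 members above the limit on all arrays, the median SD was 0.23 in NdpKO;Ptch+/- MBs and 0.22 in Ptch+/- MBs, against 0.14 in GNPs, and over all 7366 genes above the limit on all arrays it was 0.22, 0.20 and 0.14. The least even members were *Gstk1* (SD 1.46), *Gpx3* (1.31) and *Gstm2* (1.29) among Ptch+/- MBs, and *Hmox1* among NdpKO;Ptch+/- MBs (1.09) and GNPs (0.82).

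Antioxidant response elements were searched as TGACNNNGC on either strand in the 250 bases before each RefSeq start. Of 44 members with a promoter entry, 8 (18.2%) held one, where 11.5% of all genes with an entry did: *Gclm*, *Gsta3*, *Gstm5*, *Gstm7*, *Mgst1*, *Nfe2l2*, *Prdx1* and *Txnrd1*. The sites of the 3 that passed against GNPs are shown with 10 bases on either side, with the element in capitals.
Nfe2l2, chr2:75704885-75704913 (- strand): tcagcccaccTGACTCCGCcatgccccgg
Gclm, chr3:122245413-122245441 (+ strand): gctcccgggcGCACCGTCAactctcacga
Gstm7, chr3:107931725-107931753 (- strand): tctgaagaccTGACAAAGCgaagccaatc

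The 3 genes moved differently: *Nfe2l2* was higher in NdpKO;Ptch+/- MBs than in GNPs, and *Gclm* and *Gstm7* were lower in both tumor genotypes. The other 5 did not pass in any comparison. The form TGANTCAGC, which holds an AP-1 site, was in the windows of *Gstp1*, *Gstp2*, *Prdx1* and *Srxn1* and in 1.02% of all windows. Of these, *Gstp2* alone passed between tumor genotypes.

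Of 57 measured redox genes outside these families, 1 was higher and 3 were lower in NdpKO;Ptch+/- MBs than in Ptch+/- MBs (1.75% and 5.26%), where 0.808% and 1.26% of all genes were. *Chac1*, which breaks glutathione down in the cytosol, had 4.88, 4.97, 4.75 and 6.08 in NdpKO;Ptch+/- MBs and 10.21, 7.30, 11.51 and 10.18 in Ptch+/- MBs, against 12.21, 12.10, 11.51 and 11.58 in GNPs. The tumor genotypes did not overlap, and the log2 fold change was -4.63 ± 0.76 between them (limma adjusted p = 0.021), -6.68 ± 0.76 in NdpKO;Ptch+/- MBs against GNPs (adjusted p = 4.1e-04) and -2.05 ± 0.76 in Ptch+/- MBs against GNPs (adjusted p = 0.098). *Sesn2*, a stress-induced sestrin, was under the limit in all the NdpKO;Ptch+/- MBs and had 7.35, 5.32, 7.78 and 6.73 in Ptch+/- MBs, against 6.82, 7.10, 6.39 and 6.04 in GNPs. It was at least 4.91-fold lower in NdpKO;Ptch+/- MBs than in Ptch+/- MBs (adjusted p = 0.036).

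*Msrb2*, a mitochondrial methionine sulfoxide reductase, was lower in NdpKO;Ptch+/- MBs than in Ptch+/- MBs by a log2 fold change of -0.40 ± 0.06 (limma adjusted p = 0.014) and than in GNPs by -0.61 ± 0.06 (adjusted p = 1.8e-04). It was also lower in Ptch+/- MBs than in GNPs, by -0.20 ± 0.06 (adjusted p = 0.045). *Idh1*, a source of cytosolic NADPH, had 11.04, 11.46, 11.26 and 10.99 in NdpKO;Ptch+/- MBs and 10.63, 10.81, 10.51 and 10.42 in Ptch+/- MBs, against 11.62, 11.54, 11.69 and 11.67 in GNPs. The groups did not overlap. Its log2 fold change was 0.59 ± 0.11 between tumor genotypes (adjusted p = 0.037), -0.44 ± 0.11 in NdpKO;Ptch+/- MBs against GNPs (adjusted p = 0.028) and -1.04 ± 0.11 in Ptch+/- MBs against GNPs (adjusted p = 2.1e-04).

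Against GNPs, 4 of the 57 were higher and 10 lower in each tumor genotype (7.02% and 17.5%). Of all genes, 7.69% were higher and 7.98% lower in NdpKO;Ptch+/- MBs, and 10.3% were higher and 10.9% lower in Ptch+/- MBs. *Blvra*, which reduces biliverdin, was higher in NdpKO;Ptch+/- MBs by 1.13 ± 0.18 (limma adjusted p = 0.0031) and in Ptch+/- MBs by 1.20 ± 0.18 (adjusted p = 0.0017). *Sod2*, the mitochondrial superoxide dismutase, differed by -0.23 in NdpKO;Ptch+/- MBs (adjusted p = 0.034) and by -0.39 in Ptch+/- MBs (adjusted p = 0.0018). *Maff*, a small Maf partner of NRF2, passed at values under the limit on every array and is not read as a change. The same holds for *Abcc1*, counted as higher in Ptch+/- MBs (limma adjusted p = 0.025). *Sesn3*, counted as lower in both tumor genotypes, was above the limit in GNP 1 alone (4.87). *Abcc1* and *Sesn3* are named for their dim signal, with their values already seen. *Nnt*, which makes mitochondrial NADPH and is partly deleted in some C57BL/6 lines, had 4.23 to 4.31 in NdpKO;Ptch+/- MBs and 4.44 to 4.94 in Ptch+/- MBs, against 4.19 to 4.23 in GNPs. Its call in Ptch+/- MBs (adjusted p = 0.011) rests on signals at or near background.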

How the data were processed

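RNA from 4 NdpKO;Ptch+/- MBs, 4 Ptch+/- MBs and 4 WT GNP samples was read on 12 Illumina MouseWG-6 arrays. The deposited values are on a log2 scale: the authors exported BeadStudio intensities and ran neqc in limma on them, which models background from negative controls, adds an offset (16 unless changed) and quantile-normalizes the arrays. Their limma version is not given in the sources used here. Quantile normalization removes differences in general level between arrays, and the number of arrays limits the precision.

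Groups were compared here in R 4.3.3 with limma 3.58.1 (lmFit and eBayes) in 1 model over all 12 arrays, two-sided, with no covariate, and p-values were Benjamini-Hochberg adjusted across 45281 probes at a threshold of 0.05. Of the probes, 34885 have 1 symbol, 18 several and 10378 none. Where all arrays of the dimmer group were under 4.5, the fold is a lower bound, from the mean of the brighter group to that limit, since the files used hold no detection call. Promoters are from RefSeq (GRCm38.p6), aligned with biopython 1.88.

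The named genes were the members that passed between tumor genotypes, the 6 largest rises and 6 largest falls that passed against GNPs with all arrays of both groups at or above 4.5, *Nfe2l2*, *Keap1* and the main synthesis and stress genes, and up to 4 redox genes with the smallest p in each comparison. The members, the lists and the limit of 4.5 were chosen with earlier results of these data known. Replicate numbers did not pair the samples: same-numbered samples' deviations from their group means correlated at -0.18 to 0.11 over 15469 probes. The alternatives were other normalizations, a filter on dim probes, other variance models, the probe rule, the threshold, the samples fitted, the replicate block and leaving out each array.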

Additional observations from a re-analysis of the deposited data

Results flagged for a closer look

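The gap between the highest Ptch+/- MB and the others was large against the whole range of that group for 3 members. *Gpx3* was 7.19 in Ptch+/- MB 4, where the others had 4.48 to 4.74. *Gstt3* was 5.99 in Ptch+/- MB 4, where the others had 4.16 to 4.24. *Gpx1* was 13.02 in Ptch+/- MB 3, where the others had 12.86 to 12.88. In GNPs, *Txnrd1* was 6.53 in replicate 4, where the others had 5.63 to 5.68. These are 4 flags among 94 groups of 4 examined with Dixon's test, where chance flags about 1 in 20 groups, or 4.7.

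For 3 members the change from GNPs differed between the tumor genotypes, by the test of the difference itself, which is the comparison of the tumor genotypes since both share the GNPs. The difference was 3.17 for *Gsto1*, 1.23 for *Gpx8* and -2.54 for *Gstp2* (log2, NdpKO;Ptch+/- minus Ptch+/-).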

How the results depend on the processing

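Over 38 results and their alternatives, 827 of 946 values kept their direction and side of the threshold, 87 lost the call and 32 gained it. None of the log2 fold changes examined changed sign. They were those with an unadjusted p under 0.05 in the main limma fit, so a change of sign was unlikely from the start. Between tumor genotypes, the count of higher members (2) was 4 with dim probes left out and with an intensity trend and robust prior, and 1 with the tumors alone, with a threshold of 0.01, with the replicate block, and with the tumors alone and dim probes left out (chosen after seeing the data). That of lower members (1) was 0 with the tumors alone, with a threshold of 0.01 and with the replicate block. Leaving out 1 array gave 1 to 3 higher, with 1 without NdpKO;Ptch+/- MB 1 or 2, Ptch+/- MB 2 or 4 or any 1 GNP sample, and 1 to 2 lower, with 2 without Ptch+/- MB 3. In NdpKO;Ptch+/- MBs against GNPs, the 6 higher and 6 lower members became 1 and 3 at a threshold of 0.01, and 3 to 6 and 3 to 7 on leaving out 1 array, with 3 higher without NdpKO;Ptch+/- MB 1 or 4 or GNP 1, 3 or 4 and 3 lower without NdpKO;Ptch+/- MB 1 or GNP 1 or 2. In Ptch+/- MBs against GNPs, the 3 higher members were 6 with dim probes left out and with the trend and robust prior, 5 with the mean of a gene's probes and with only the groups compared and dim probes left out, and 2 to 6 on leaving out 1 array (5 without NdpKO;Ptch+/- MB 4 and 6 without Ptch+/- MB 3), while the 10 lower members stayed at 9 to 12 in all settings.

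With the replicate number as a block, *Gpx8* (adjusted p = 0.11) and *Gstp2* (0.054) lost their calls between tumor genotypes, *Mgst3* (0.060) and *Nfe2l2* (0.081) in NdpKO;Ptch+/- MBs and *Keap1* (0.063) in Ptch+/- MBs against GNPs, and *Txnrd2* (0.046) gained one in NdpKO;Ptch+/- MBs; the samples share only a number. GNPs 1 and 2 deviated from their group mean together (r = 0.13), as did GNPs 3 and 4 (0.14), with -0.59 to -0.54 between the pairs. Without the 2 Ptch+/- MBs of highest choroid plexus signal (chosen after seeing the data), 2 members were higher and 1 lower between tumor genotypes, and *Gpx8* had lost its call (adjusted p = 0.13). With probes averaged per gene, the log2 fold change in NdpKO;Ptch+/- MBs against GNPs was 0.77 for *Gstm1*, 0.53 for *Nfe2l2* and 0.38 for *Gstp1*, and all 3 kept their calls; in Ptch+/- MBs it was 0.83 for *Gstm1* and -0.52 for *Txnrd2*, which also kept theirs. *Nqo1*, under the limit on all arrays, gave no value with dim probes left out. The signal over background limits what can be said of the 14 members under 4.5 on all arrays.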
